A study of Homo sapiens with 12 samples.

Results

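The genes described here carry long-chain fatty acids into a cell and through mitochondrial β-oxidation. They are CD36 and 9 mitochondrial enzymes (CPT1A, CPT2, ACADM, ACADVL, HADHA, HADHB, ECI1, ACAA2 and ETFDH). They were chosen by symbol and are 10 of the 57353 gene names in the count table. All 10 passed the filter on low counts and were among the 12998 genes tested. RNA came from MOLM-13, an established human acute myeloid leukemia (AML) cell line that carries FLT3-ITD, an activating internal duplication in the FLT3 receptor kinase, with the genotype WT on the labels. Cells received vehicle (DMSO) or 3 nM quizartinib (AC220), a FLT3 kinase inhibitor, for 15 hr. They were held in RPMI or in hBMSC-CM, which is medium conditioned by the human bone marrow stromal line HS-5 and mixed in equal parts with RPMI. The 4 groups had 3 libraries each, from a single AML line and a single stromal line, and stromal cells themselves were not cultured with the AML cells.

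Fatty acid oxidation runs in a fixed order. CD36 is a membrane glycoprotein that binds and helps to take up long-chain fatty acids, and in blood it is known on monocytes, platelets and erythroid precursors. Fatty acids bound to coenzyme A are moved onto carnitine by CPT1A at the outer mitochondrial membrane, a step blocked by malonyl-CoA, and are moved back onto coenzyme A inside by CPT2. ACADVL and ACADM then oxidize very long and medium chains, the trifunctional protein made of HADHA and HADHB carries out the remaining steps on long chains, ACAA2 is a thiolase, ECI1 isomerizes double bonds, and ETFDH hands the electrons to ubiquinone. Leukemic cells are known to draw on this pathway for energy.

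HADHA and HADHB lie head to head on chromosome 2, and their shared upstream stretch is shown because both genes rose with quizartinib in both media. In GENCODE v44 on GRCh38, HADHA spans chr2:26190635-26244672 on the minus strand and HADHB spans chr2:26243170-26290465 on the plus strand. In RefSeq (GRCh38.p14) their starts are separated by 306 bases, and the promoter windows, which run from 250 bases before to 50 bases after each start, share 194 bases at chr2:26244689-26244882. CD36 spans chr7:80369575-80679277 on the plus strand and has 6 RefSeq windows. The 250 bases before the first of these starts, chr7:80601957-80602206, are printed beside the shared stretch because CD36 had the largest drug response of the 10 genes and a different base composition. Both are on the plus strand, 5′ to 3′, and capitals mark CG dinucleotides.
HADHA and HADHB: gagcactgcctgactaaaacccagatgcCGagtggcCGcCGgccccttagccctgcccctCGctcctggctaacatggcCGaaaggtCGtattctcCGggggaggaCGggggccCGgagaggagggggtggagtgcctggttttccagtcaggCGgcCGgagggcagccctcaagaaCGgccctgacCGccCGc
CD36: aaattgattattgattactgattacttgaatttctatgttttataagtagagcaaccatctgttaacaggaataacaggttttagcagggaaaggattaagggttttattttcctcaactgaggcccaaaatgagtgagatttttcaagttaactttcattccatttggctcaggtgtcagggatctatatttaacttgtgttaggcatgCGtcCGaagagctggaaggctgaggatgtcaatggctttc
The stretch between HADHA and HADHB holds 14 CG dinucleotides and 68.6% G or C, and the CD36 stretch holds 2 and 37.2%. Over the 6 CD36 windows of 300 bases the share of G or C was 35.0% to 43.7%, with 1 to 3 CG dinucleotides. The 9 windows of the other members reached 71.7% and held 6 to 30 CG dinucleotides. The CPT1A window and 1 of ACADVL (52.7%) lay below the median of all 35116 windows, which was 58.7%. ETFDH was not matched to a window, which left 9 members with 15 windows. Searched on both strands, the letters GGGCGG (GC box) occurred in windows of 6 members (CPT2, ACADM, ACADVL, HADHA, HADHB and ECI1) and in 45.0% of all windows. TATAAA, a core promoter element, occurred in windows of CD36 and ACADVL and in 11.5% of all windows, and CCAAT occurred in 1 CD36 window and in 34.6% of all. AGGTCA, the core recognized by many nuclear receptors, and CACGTG, the E-box bound by MYC, occurred in 0 of the 15 windows, against 13.8% and 7.26% of all windows. The letters AGGTCANAGGTCA, that core in direct repeat with 1 base between the copies, likewise occurred in 0 of the 15, against 0.0228% of all. A match describes these letters only, and the counts do not tell which CD36 start was used.

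Total counts per library were between 19966546 and 31546104. The limit set by a count of 0, taken as 3 counts, was 0.0951 to 0.150 CPM (counts relative to library size). Levels of genes in CPM are scaled by TMM factors, and this limit is not. Of 8 markers of AML and myeloid cells, 8 were tested. They summed to 828 to 837 CPM with vehicle and 1485 to 1513 CPM with quizartinib in RPMI, and to 721 to 743 CPM and 1070 to 1090 CPM in hBMSC-CM. The 4 groups stood in the same order for CD36, but the single markers were split. With the drug, 5 rose and 2 (CD33 and MPO) fell in RPMI, against 40.1% and 39.2% of all genes. In hBMSC-CM, 4 rose and 1 (MPO) fell, against 33.4% and 33.7%. The mitochondrial share of counts also moved with the drug, from 0.683% to 0.790% with vehicle and 1.02% to 1.10% with quizartinib in RPMI, and from 0.458% to 0.613% and 0.683% to 0.947% in hBMSC-CM. The part of either in the results was not tested. The 7 markers of erythroid and megakaryocytic cells, which can carry CD36, summed to at most 0.695 CPM in any library, and HBG1 and PF4 were at 0 throughout. Of 8 stromal markers, only COL1A1 was tested, and 5 (COL3A1, LUM, DCN, POSTN and THY1) were at 0 in every library. COL1A1 had 0.177 ± 0.0869 and 4.61 ± 0.248 CPM with vehicle and quizartinib in RPMI and 0.225 ± 0.0792 and 0.992 ± 0.143 CPM in hBMSC-CM (SD, n = 3). The 5 adipocyte markers summed to at most 0.0488 CPM. The study describes its replicates as biological, and the labels do not say whether they were separate cultures, so p-values measure the spread between these libraries. In bulk RNA, fewer cells of a type and less RNA per cell cannot be told apart.

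Per kilobase of exon, the order of the 10 levels in vehicle-treated cells in RPMI was led by HADHA. Its level was 72.8 ± 1.36 CPM per kb, followed by ACADVL with 39.7 ± 1.25, HADHB with 27.2 ± 0.0650, ACAA2 with 18.1 ± 0.462 and CPT1A with 11.6 ± 0.145 (SD, n = 3, union of annotated exons). ECI1 had 9.18 ± 0.126 CPM per kb, ACADM 7.73 ± 0.168, CPT2 5.14 ± 0.189, ETFDH 1.93 ± 0.0705 and CD36 0.520 ± 0.0617 (SD, n = 3). The 3 libraries of neighbours in this order did not overlap. With quizartinib in RPMI, HADHB (41.8 ± 1.16 CPM per kb) stood above ACADVL (36.5 ± 1.99), CD36 (5.08 ± 0.111) stood above ETFDH (1.97 ± 0.0481), and ACADM and ECI1 overlapped (SD, n = 3). The order depended on the divisor. By the length of the longest transcript, CPT1A with vehicle in RPMI (14.6 CPM per kb) came after ECI1 (19.5) and ACADM (17.5), while the first 4 and the last 3 genes stood in the same order. With quizartinib in RPMI, the longest transcript put ACADVL (74.9 CPM per kb) above HADHB (62.1), the reverse of the order by union of exons.

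The first question was how FLT3 inhibition changed these genes in RPMI. CD36 rose 9.77-fold with quizartinib and was the only one of the 10 to change by at least 2-fold. Both subunits of the trifunctional protein rose by 1.39-fold and 1.54-fold, CPT2 rose by 1.10-fold, and CPT1A, ECI1 and ACADVL fell. Of the 10 genes, 7 were called at an adjusted p under 0.05 by edgeR's quasi-likelihood test, 4 higher and 3 lower. Of all genes tested, 79.3% were called, 40.1% higher and 39.2% lower, so a call was common and the share among the 10 was near this background. The 9 enzymes moved little by size. The median size of their log2 change was 0.14, against 0.48 over all genes tested.

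CD36 had 5.13, 6.42 and 5.44 CPM in the 3 vehicle-treated libraries in RPMI (raw counts of 118 to 164) and 56.5, 55.2 and 54.1 CPM with quizartinib (1107 to 1588). Every treated library stood far above every vehicle-treated one. The log2 change was 3.29 (standard error 0.0707, adjusted p = 1.00e-19), which ranked 76 by size among the genes tested.

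**Figure D1:**
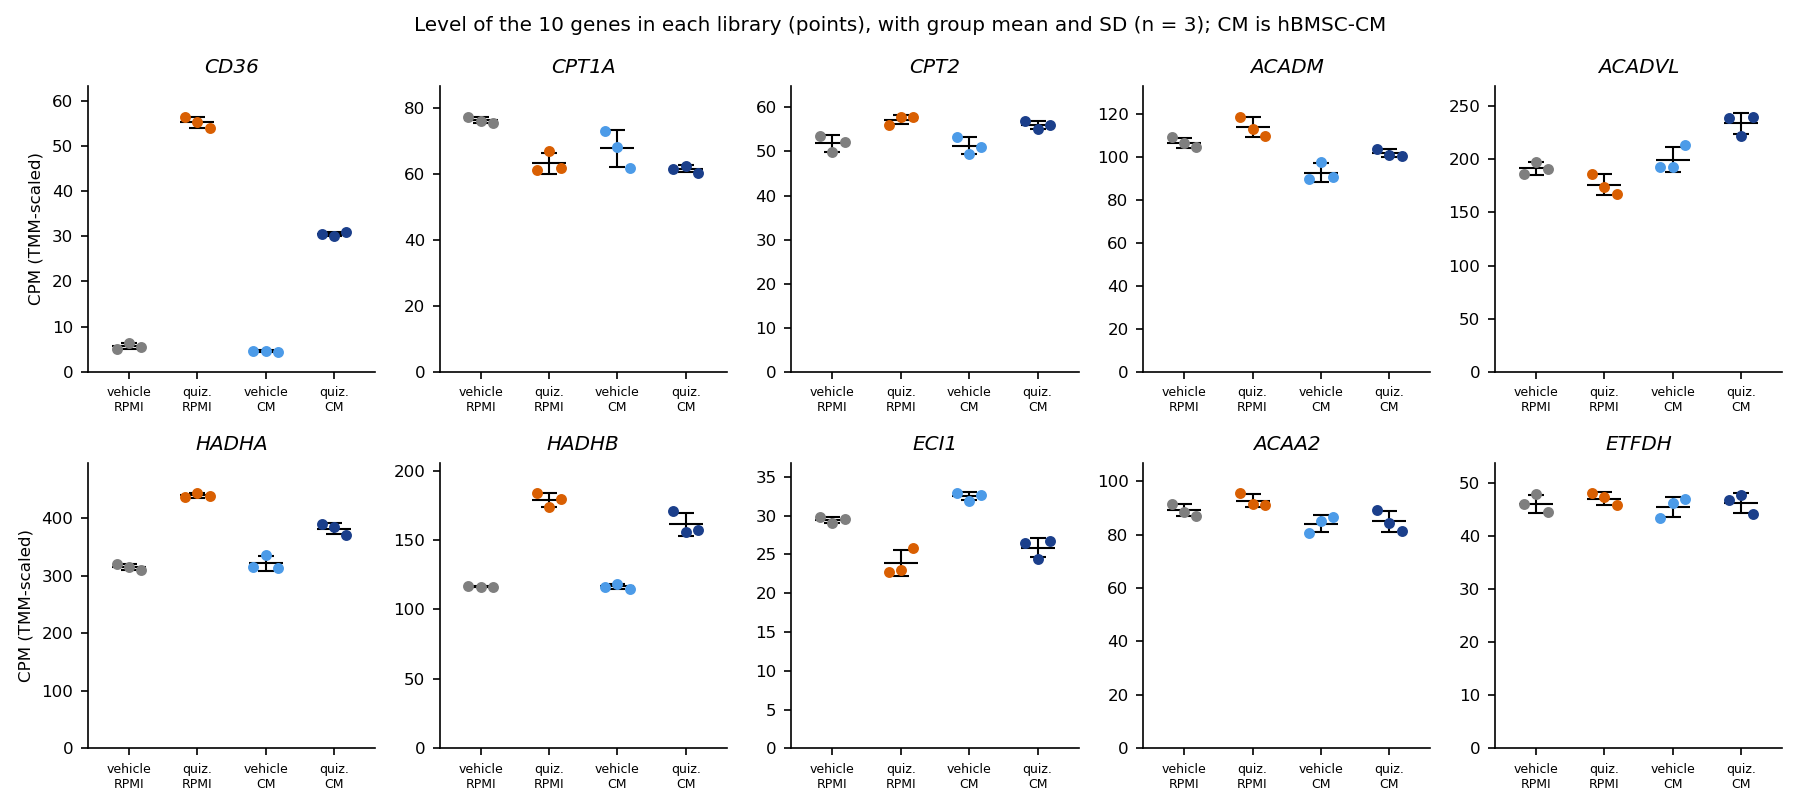
CPM of each of the 10 genes (vertical axes from 0, each gene on its own scale) in the 12 libraries, with quiz. for quizartinib and CM for hBMSC-CM. Points are libraries, and bars are the group mean with its SD (n = 3). CD36 goes from about 5 CPM with vehicle to 55.3 ± 1.21 CPM with quizartinib in RPMI and 30.5 ± 0.387 in hBMSC-CM, while the 9 enzymes stay within a narrow range.

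HADHA, the subunit with hydratase and dehydrogenase activity, had 321, 315 and 309.6 CPM with vehicle and 436, 444 and 439.7 CPM with quizartinib in RPMI. HADHB, the thiolase subunit, had 117, 116 and 116 CPM with vehicle and 184, 174 and 179 CPM with quizartinib. The treated libraries of both genes lay above all vehicle-treated ones. The log2 changes were 0.48 for HADHA (standard error 0.0407, adjusted p = 6.14e-10) and 0.62 for HADHB (standard error 0.0424, adjusted p = 1.76e-11).

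The carnitine enzymes moved in opposite directions. CPT1A had 77.4, 76.0 and 75.6 CPM with vehicle and 61.1, 67.0 and 61.9 CPM with quizartinib, lower in every treated library, with a log2 change of −0.27 (standard error 0.0536, adjusted p = 1.12e-04). CPT2 had 53.6, 49.8 and 52.1 CPM with vehicle and 56.1, 57.9 and 57.7 CPM with quizartinib, a log2 change of 0.14 (standard error 0.0469, adjusted p = 0.00916). The CPT2 call was lost without vehicle replicate 2 in RPMI (0.11), and also with the filter of edgeR's filterByExpr (0.09) or with no filter on low counts (0.04). Counts of CPT1A per count of CPT2 went from 1.47 ± 0.0448 with vehicle to 1.11 ± 0.0448 with quizartinib in RPMI (SD, n = 3).

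Among the remaining enzymes, ECI1 fell from 29.8, 29.0 and 29.5 CPM to 22.8, 23.0 and 25.8 CPM, with every treated library below the vehicle-treated ones and a log2 change of −0.31 (standard error 0.0600, adjusted p = 8.57e-05). ACADVL, which begins the oxidation of very long chains, had 186, 198 and 191 CPM with vehicle and 187, 174 and 168 CPM with quizartinib, and these ranges overlapped. Its log2 change was −0.12 (standard error 0.0505, adjusted p = 0.0356), a call that was lost with library sizes alone (−0.03), with upper-quartile factors (−0.02), and without 1 library when that was vehicle replicate 2 (−0.10) or 3 (−0.12), or quizartinib replicate 2 (−0.11) or 3 (−0.08) in RPMI, or quizartinib replicate 3 in hBMSC-CM (−0.11). ACADM, ACAA2 and ETFDH were not called. ACADM, for medium chains, had 109, 106 and 104 CPM with vehicle and 119, 113 and 109.5 CPM with quizartinib, a log2 difference of 0.09 (95% interval 0.00296 to 0.184, adjusted p = 0.0547). It passed the threshold without quizartinib replicate 3 in RPMI (0.12) or in hBMSC-CM (0.10). ACAA2 had a log2 difference of 0.06 (95% interval −0.0364 to 0.152) and ETFDH one of 0.03 (95% interval −0.0781 to 0.137). These 3 depended on the scaling. Under upper-quartile factors the median log2 change of all genes moved by 0.10, and these 3 came to 0.20, 0.16 and 0.13 and were called, as they were with library sizes alone (0.18, 0.15 and 0.12). With no filter on low counts, which shifted the median by −0.10, they came to −0.01, −0.04 and −0.07 and were not called.

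The same comparison in hBMSC-CM asks how the drug acted in medium conditioned by stromal cells. CD36 rose 6.68-fold, HADHA 1.19-fold and HADHB 1.38-fold, and ACADVL rose here by 1.17-fold. CPT2 rose by 1.09-fold and ACADM by 1.10-fold, while CPT1A and ECI1 fell. Of the 10 genes, 8 were called, 6 higher and 2 lower, against 67.1% of all genes, 33.4% higher and 33.7% lower. Of all calls, 49.8% were upward with TMM, 62.8% with library sizes alone and 60.0% with upper-quartile factors. The median size of the log2 change was 0.14 over the 9 enzymes and 0.30 over all genes tested.

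CD36 had 4.65, 4.71 and 4.32 CPM with vehicle in hBMSC-CM (raw counts of 91 to 141) and 30.6, 30.2 and 30.9 CPM with quizartinib. The groups stood apart, with little spread within each, and the log2 change of 2.74 (standard error 0.0783, adjusted p = 1.24e-16) ranked 20 by size among all genes tested. HADHA had 316, 337 and 314 CPM with vehicle and 390.4, 385 and 371 CPM with quizartinib. HADHB had 116, 119 and 115 CPM with vehicle and 171, 156 and 157 CPM with quizartinib. Again both subunit genes were higher in every treated library, with log2 changes of 0.25 (standard error 0.0407, adjusted p = 1.96e-05) and 0.47 (standard error 0.0427, adjusted p = 5.10e-09).

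ACADVL had 193, 193 and 214 CPM with vehicle and 239, 222 and 240.1 CPM with quizartinib, higher in every treated library, with a log2 change of 0.23 (standard error 0.0502, adjusted p = 4.79e-04). ECI1 fell from 32.9, 31.9 and 32.7 CPM to 26.4, 24.4 and 26.8 CPM, with no overlap and a log2 change of −0.33 (standard error 0.0595, adjusted p = 5.68e-05).

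ACADM had 89.8, 97.5 and 90.4 CPM with vehicle and 104, 101 and 101 CPM with quizartinib, a log2 change of 0.14 (adjusted p = 0.00986) that was not called without vehicle replicate 1 in hBMSC-CM (0.11) or with no filter on low counts (0.11). CPT2 had a log2 change of 0.13 (adjusted p = 0.0242), which was not called without vehicle replicate 2 (0.10) or quizartinib replicate 1 (0.11) or 3 (0.12) in hBMSC-CM, with no filter (0.09) or with filterByExpr (0.10). CPT1A had 73.1, 68.3 and 61.9 CPM with vehicle and 61.7, 62.6 and 60.5 CPM with quizartinib, and these overlapped. Its log2 change of −0.14 (adjusted p = 0.0267) was not called with library sizes alone (−0.04), with upper-quartile factors (−0.06), with only the groups compared (−0.13), or without vehicle replicate 1 (−0.08) or 2 (−0.14) or quizartinib replicate 3 (−0.13) in hBMSC-CM. ACAA2 and ETFDH were not called, with log2 differences of 0.02 (95% interval −0.0781 to 0.113) and 0.02 (95% interval −0.0838 to 0.134). With library sizes alone, which shifted the median of all genes by 0.10, they came to 0.12 and 0.13 and were called. Leaving out vehicle replicate 1 turned both (−0.02 and −0.01), and leaving out quizartinib replicate 1 turned ACAA2 (−0.02).

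**Figure D2:**
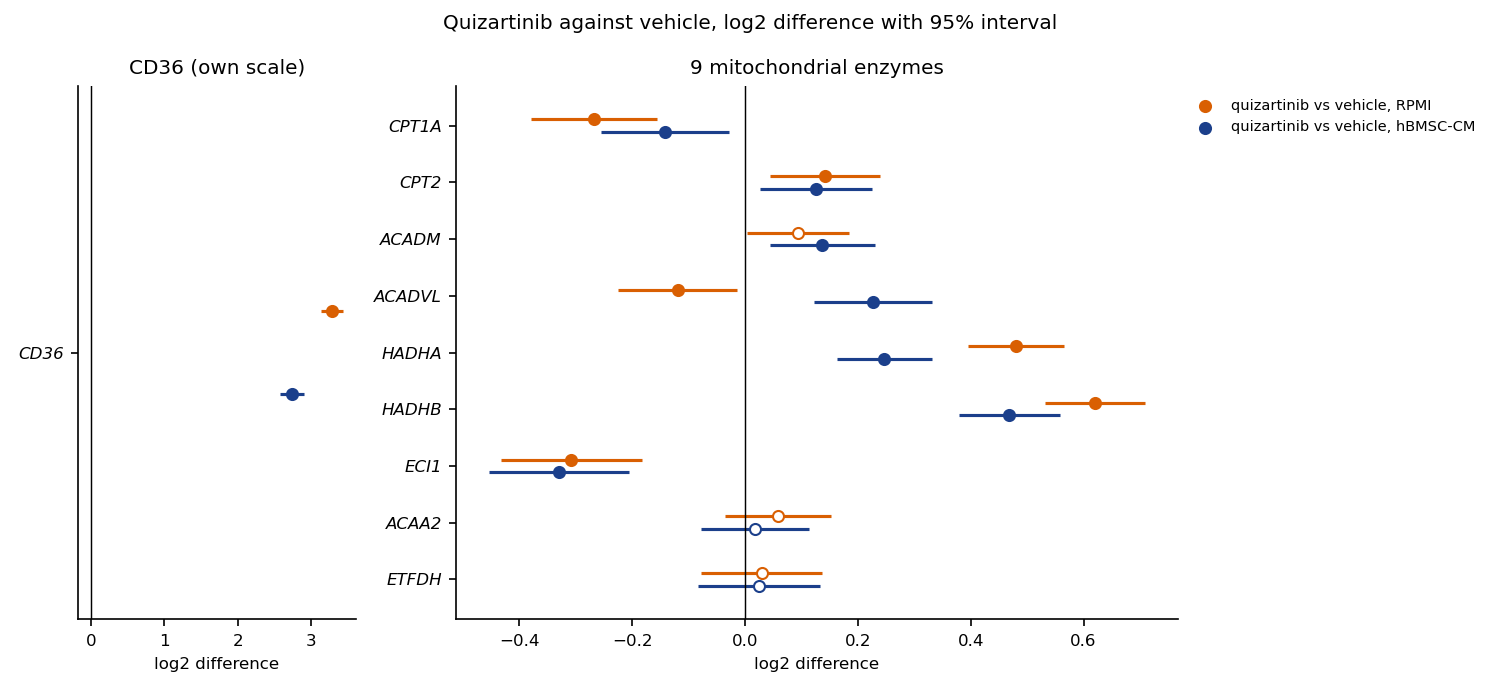
Log2 difference between quizartinib and vehicle (horizontal axis) for each gene in RPMI and in hBMSC-CM, with 95% intervals from the model. CD36 has its own scale, filled points were called and open points were not. CD36 lies at 3.29 in RPMI and 2.74 in hBMSC-CM, and ACADVL is the gene whose points lie on opposite sides of 0.

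Whether the drug effect itself differed between the media was tested as an interaction, the log2 change in hBMSC-CM minus that in RPMI. It was called for CD36, ACADVL, HADHA and HADHB. CD36 and both trifunctional subunit genes rose less in hBMSC-CM. ACADVL rose in hBMSC-CM, while its small fall in RPMI (−0.12) was a call lost under several alternatives, as given above. Of the 10 genes, 1 was called higher and 3 lower, against 45.2% of all genes, 26.1% higher and 19.2% lower. Of all calls, 57.6% were upward, and 70.6% with no filter on low counts.

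The interaction was −0.55 for CD36 (standard error 0.115, adjusted p = 5.82e-04) and 0.35 for ACADVL (standard error 0.0712, adjusted p = 4.59e-04). It was −0.23 for HADHA (standard error 0.0575, adjusted p = 0.00236), a call that was lost with no filter on low counts (−0.16). For HADHB it was −0.15 (standard error 0.0601, adjusted p = 0.0453), which is close to the threshold. The HADHB call was lost in 10 of the 12 fits that left out a library, those without quizartinib replicate 2 in RPMI or quizartinib replicate 1 in hBMSC-CM being the exceptions, and values over the 12 fits were −0.19 to −0.12. It was also lost with no filter on low counts (−0.08), with filterByExpr (−0.12) and with library sizes alone (−0.14). The other 6 genes were not called, with adjusted p between 0.187 and 0.969 and 95% intervals that lay between −0.20 and 0.29.

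The comparisons between media use the same libraries as those between drug and vehicle, so their values are not independent of those above. With quizartinib in both arms, hBMSC-CM was compared with RPMI to see how the medium changed these genes in treated cells. CD36 was 1.81-fold lower in hBMSC-CM, and ACADVL was 1.33-fold higher. ACADM, HADHA, HADHB and ACAA2 were lower by smaller amounts. Of the 10 genes, 6 were called, 1 higher and 5 lower, against 69.8% of all genes, 35.5% higher and 34.3% lower.

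The 3 treated libraries in hBMSC-CM lay below those in RPMI for CD36, with a log2 difference of −0.86 (standard error 0.0565, adjusted p = 2.17e-11). ACADVL had a log2 difference of 0.41 (standard error 0.0504, adjusted p = 3.85e-07), with no overlap between 222 to 240.1 CPM in hBMSC-CM and 168 to 187 CPM in RPMI. HADHA differed by −0.20 (adjusted p = 1.49e-04), HADHB by −0.15 (adjusted p = 0.00348) and ACADM by −0.16 (adjusted p = 0.00268), each with no overlap. With no filter on low counts HADHB (−0.07) and ACADM (−0.08) were not called. ACAA2 differed by −0.12 (adjusted p = 0.0192), a call that was lost without quizartinib replicate 1 in RPMI (−0.11) or quizartinib replicate 2 (−0.11) or 3 (−0.10) in hBMSC-CM, with no filter on low counts (−0.05) or with that of filterByExpr (−0.09).

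With vehicle in both arms the medium changed less. ACADM, CPT1A and CD36 were lower in hBMSC-CM, and the other 7 genes were not called. None were called higher. These 3 calls of 10 compare with 32.1% of all genes, 16.6% higher and 15.5% lower. ACADM differed by −0.20 on the log2 scale (standard error 0.0441, adjusted p = 0.00126). CD36 differed by −0.31 (standard error 0.0997, adjusted p = 0.0224) and CPT1A by −0.17 (standard error 0.0535, adjusted p = 0.0196). The CD36 call was lost with limma-voom (−0.30), with only the groups compared (−0.31), with no filter on low counts (−0.30) and without vehicle replicate 2 in RPMI (−0.21) or vehicle replicate 3 in hBMSC-CM (−0.28). The CPT1A call was lost without vehicle replicate 1 in RPMI (−0.16) or vehicle replicate 3 in hBMSC-CM (−0.11), so that 1 gene, ACADM, remained called without the latter.

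**Figure D3:**
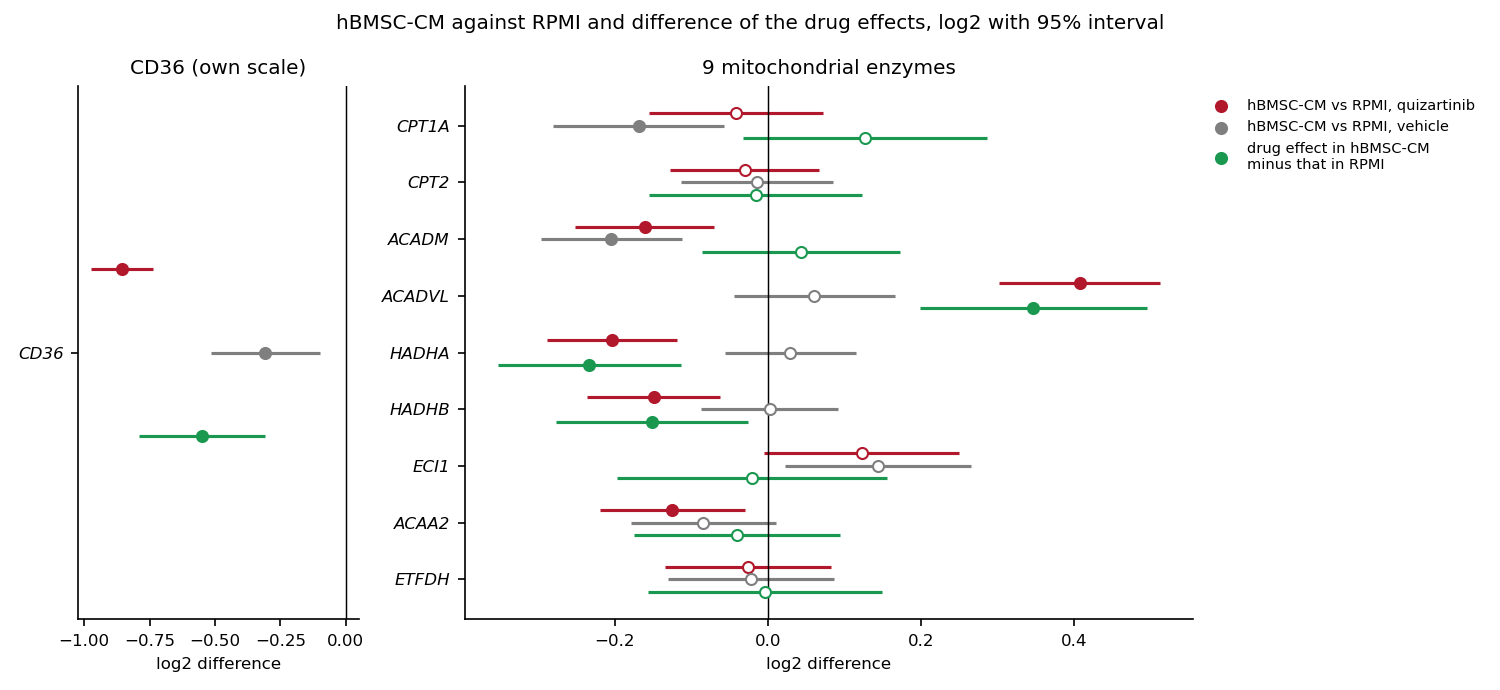
Log2 difference between hBMSC-CM and RPMI with quizartinib (red) and with vehicle (grey), and the drug effect in hBMSC-CM minus that in RPMI (green), with 95% intervals. CD36 has its own scale, filled points were called and open points were not. The treated cells differ most in CD36 (−0.86) and ACADVL (0.41), on opposite sides of 0.

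Treated cells in hBMSC-CM were also set against vehicle-treated cells in RPMI. CD36 was still far above the untreated state, with a log2 difference of 2.43 (standard error 0.0742, adjusted p = 1.75e-16). On the log2 scale HADHB, ACADVL and HADHA were higher by 0.47, 0.29 and 0.28, and CPT1A and ECI1 were lower, with differences of −0.31 and −0.19. Of the 10 genes, 7 were called, 5 higher and 2 lower, against 62.1% of all genes, 30.6% higher and 31.6% lower. Of all calls, 49.2% were upward with TMM and 62.1% with library sizes alone. The smallest of these calls was CPT2 (0.11, adjusted p = 0.0458), which was lost in 5 of the 12 fits that left out a library, those without vehicle replicate 2 (0.08) or 3 (0.11) or quizartinib replicate 2 (0.11) in RPMI, or quizartinib replicate 1 (0.10) or 3 (0.11) in hBMSC-CM. It was also lost with no filter on low counts (0.09) and with filterByExpr (0.10). ECI1 was not called without quizartinib replicate 2 in hBMSC-CM (−0.14), with library sizes alone (−0.10) or with upper-quartile factors (−0.13).

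HADHA and HADHB encode partners of 1 complex, and their counts were compared within each library. HADHA had 2.71 ± 0.0443 counts per HADHB count with vehicle and 2.46 ± 0.0896 with the drug in RPMI, and 2.76 ± 0.0686 and 2.37 ± 0.0936 in hBMSC-CM (SD, n = 3). The treated libraries lay below the vehicle-treated ones in both media, from 2.38 to 2.55 against 2.66 to 2.75 in RPMI and from 2.29 to 2.47 against 2.71 to 2.84 in hBMSC-CM. An exact two-sided permutation test of 3 libraries against 3 cannot give a p below 0.1, and the ratio was not tested over both media together.

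The 9 enzymes together summed to 1023 ± 11.4 CPM with vehicle and 1193 ± 15.2 CPM with quizartinib in RPMI, and to 1012 ± 14.5 and 1153 ± 27.1 CPM in hBMSC-CM (SD, n = 3). HADHA and HADHB made up 42.2% ± 0.234 of that sum with vehicle and 51.9% ± 0.609 with the drug in RPMI, and 43.3% ± 0.989 and 47.1% ± 0.571 in hBMSC-CM (SD, n = 3).

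**Figure D4:**
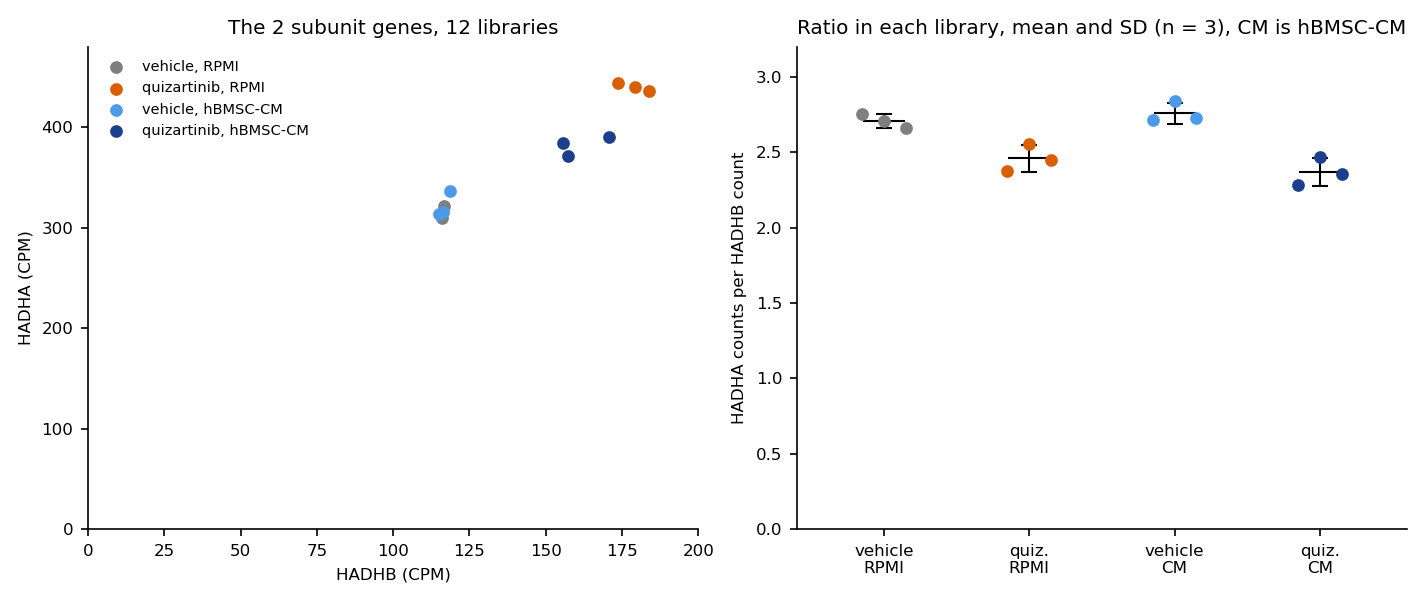
HADHA against HADHB in CPM in the 12 libraries (left, axes from 0) and HADHA counts per HADHB count in each library, with the group mean and SD (n = 3, right; quiz. is quizartinib and CM is hBMSC-CM). Both genes are higher in the 6 treated libraries, and the ratio is 2.71 and 2.76 with vehicle against 2.46 and 2.37 with quizartinib.

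Over the 12 libraries, which form 4 groups and are not 12 independent points, log2 CPM of CD36 had a Pearson r of 0.989 with HADHB, 0.964 with HADHA and 0.880 with CPT2, and HADHA and HADHB had 0.971 with each other. ECI1 (−0.933) and CPT1A (−0.687) went against CD36, and ACADM had 0.630 with it. ACADVL (−0.0214), ETFDH (0.326) and ACAA2 (0.399) had a weak relation to CD36. Among genes averaging 10 CPM or more, the 5 whose levels were most like CD36 were ABCA7, a lipid transporter, PTPRC, the CD45 phosphatase of leukocytes, CES1, a carboxylesterase, CIITA, the activator of HLA class II genes, and TAOK3, a kinase (r of 0.998, 0.997, 0.997, 0.996 and 0.996). Such values were common, since 614 of 9287 genes had an r of at least 0.95 with CD36. CIITA resembled CD36 in size too, with mean levels of 5.72 and 57.0 CPM without and with the drug in RPMI and 5.75 and 31.3 CPM in hBMSC-CM.

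The wider pathway was read from 7 lists with 104 genes, of which 79 were tested. Quizartinib in RPMI raised 35 of the 79 and lowered 33, so that 86.1% were called against 79.3% of all genes. In hBMSC-CM it raised 29 and lowered 32 (77.2% called, against 67.1%). In hBMSC-CM against RPMI, 34 were higher and 27 lower with quizartinib (77.2%, against 69.8%), and 26 were higher and 9 lower with vehicle (44.3%, against 32.1%). With vehicle, 16.6% of all genes were higher and 15.5% lower, and the lists differed. Fatty acid synthesis and desaturation had 10 higher and 0 lower, and the carnitine shuttle list had 0 higher and 2 lower. The interaction was called for 45, 23 higher and 22 lower (57.0%, against 45.2%). The counts for single lists below stand beside 40.1% of all genes higher and 39.2% lower with the drug in RPMI, and 33.4% and 33.7% in hBMSC-CM. The median size of the log2 change in RPMI was 0.52, against 0.48 over all genes tested.

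Among the genes of fatty acid uptake and activation, 4 of 12 tested rose in RPMI and 7 fell (3 and 6 in hBMSC-CM). SLC27A1, a fatty acid transport protein, went from 17.6 ± 1.09 to 36.1 ± 1.89 CPM in RPMI (log2 change 1.04), and DBI, which binds acyl-CoA, from 159 ± 4.37 to 269.5 ± 6.84 CPM (0.76, SD, n = 3). FABP5, a cytosolic fatty acid binding protein, fell from 98.3 ± 3.47 to 21.9 ± 1.47 CPM (−2.16), and SLC27A4, another transport protein, from 52.2 ± 1.89 to 18.2 ± 0.522 CPM (−1.52, SD, n = 3). In hBMSC-CM the log2 changes of SLC27A1, FABP5 and SLC27A4 were 0.62, −0.89 and −0.71, and DBI had 134 ± 4.34 CPM with vehicle and 140.4 ± 5.70 CPM with quizartinib (SD, n = 3) and was not called.

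In the carnitine shuttle and malonyl-CoA control list, 4 of 5 tested genes rose in RPMI and 0 fell. In hBMSC-CM, 3 rose and 1 (ACACB) fell. CPT1B, counted as higher in both media and named here after its values were seen, averaged 1.52 CPM, close to the filter of 1 CPM. SLC25A20, the carrier that brings acylcarnitines across the inner membrane between CPT1A and CPT2, went from 12.4 ± 0.196 to 30.7 ± 0.522 CPM in RPMI (1.30) and from 9.60 ± 0.543 to 16.9 ± 0.757 CPM in hBMSC-CM (0.82, SD, n = 3). MLYCD, which removes malonyl-CoA, rose by 0.63 and 0.49 on the log2 scale. ACACB, which makes malonyl-CoA near mitochondria and is named here after its values were seen, had log2 changes of 0.54 in RPMI and −0.31 in hBMSC-CM.

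The other enzymes of mitochondrial β-oxidation were split, with 6 of 13 higher and 5 lower in RPMI and 6 higher and 4 lower in hBMSC-CM. ACADS, for short chains, rose by 0.82 in RPMI and 0.58 in hBMSC-CM on the log2 scale, and DECR1, needed for polyunsaturated chains, by 0.63 and 0.51. ACAD9, an acyl-CoA dehydrogenase that also assembles complex I, fell by 0.90 and 0.42, and HSD17B10, a mitochondrial dehydrogenase, fell by 0.52 and 0.30. Of the tested genes on the peroxisomal list, 11 of 15 rose in RPMI and 2 fell (9 and 2 in hBMSC-CM), where 40.1% and 33.4% of all genes rose. ABCD4, listed by its transporter family and not for a known part in peroxisomal oxidation, rose by 0.75 and 0.39. ABCD3, which imports branched substrates, fell by 0.54 and 0.31. PECR, a peroxisomal reductase, had 9.32 ± 0.995 and 15.0 ± 2.00 CPM in RPMI (0.67) and 10.4 ± 1.23 and 10.3 ± 0.577 CPM in hBMSC-CM (SD, n = 3). ACOX3, a peroxisomal oxidase, had a log2 change of −0.22 in RPMI, a call that was lost with library sizes alone (−0.13), with upper-quartile factors (−0.11) and without vehicle replicate 1 (−0.18) or quizartinib replicate 1 (−0.14).

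**Figure D5:**
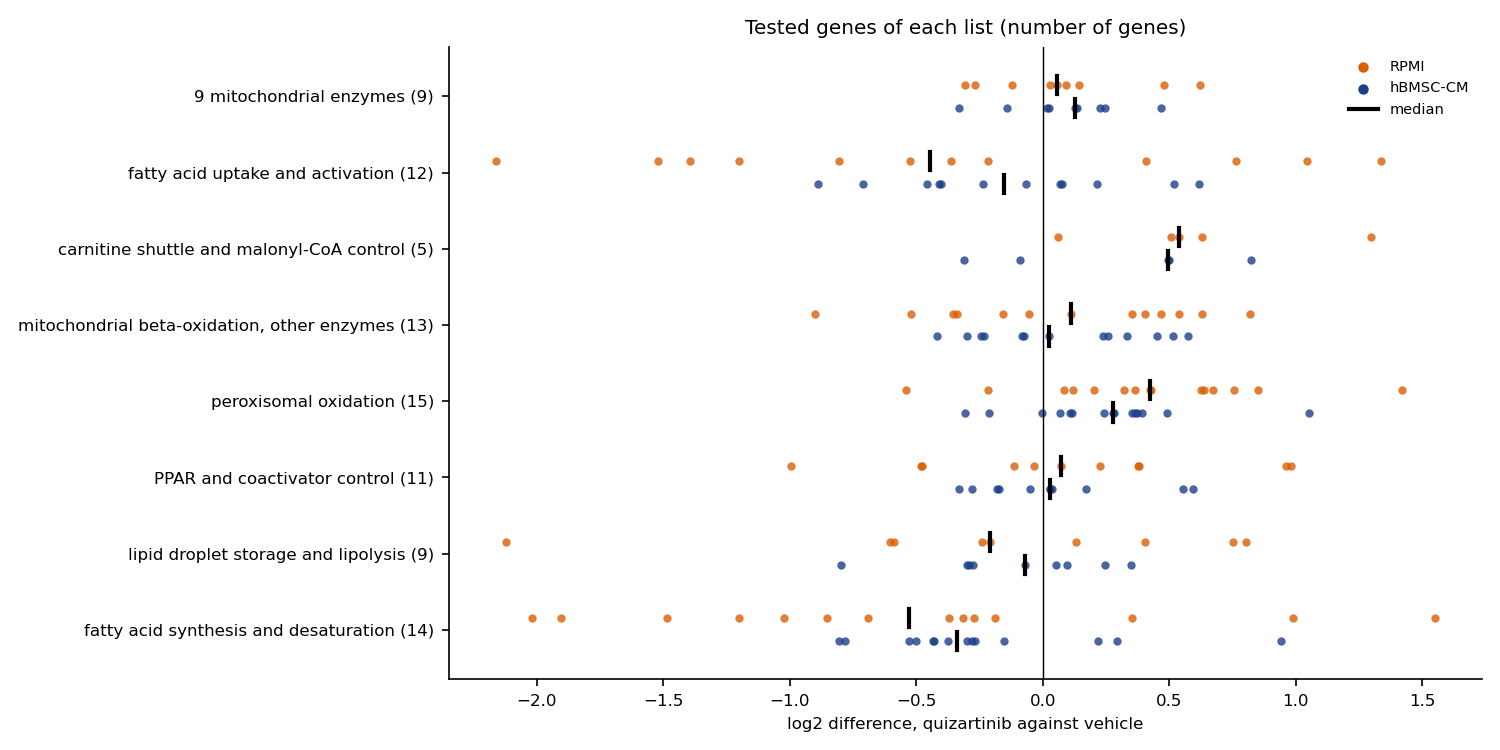
Log2 difference between quizartinib and vehicle for the 9 enzymes (top) and for the tested genes of each list, in RPMI (orange) and hBMSC-CM (blue). Points are genes, the number of genes is in parentheses, and black bars are medians. The 9 enzymes lie closer to 0 than the ends of the lists of uptake, lipid droplet and synthesis genes, which reach −2.16, −2.12 and −2.02 in RPMI.

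Of the genes for PPAR receptors and coactivators, 4 of 11 rose in RPMI and 3 fell (3 and 4 in hBMSC-CM). PPARA, a receptor known to activate genes of fatty acid oxidation, went from 8.48 ± 0.400 to 16.8 ± 0.725 CPM in RPMI (0.98) and from 11.6 ± 0.753 to 17.2 ± 0.433 CPM in hBMSC-CM (0.55, SD, n = 3). RXRA, its partner, rose by 0.96 and 0.59 on the log2 scale. PPARGC1B, a coactivator, fell by 0.99 and 0.33, and ESRRA, a nuclear receptor that works with it, fell by 0.48 and 0.17. The ESRRA call in hBMSC-CM was lost with library sizes alone (−0.07), upper-quartile factors (−0.09) or only the groups compared (−0.16). It was also lost without vehicle replicate 3 (−0.11) or quizartinib replicate 2 (−0.10) in hBMSC-CM. Of the genes of lipid droplets and lipolysis, 3 of 9 rose in RPMI and 5 fell (2 and 4 in hBMSC-CM). PNPLA2, the triglyceride lipase ATGL, went from 38.7 ± 0.929 to 67.5 ± 5.15 CPM in RPMI (0.80) and had 38.0 ± 4.18 and 40.8 ± 1.44 CPM in hBMSC-CM (SD, n = 3). PLIN3, a droplet coat protein, rose by 0.75 and 0.35 on the log2 scale. CIDEB, a droplet protein, fell by 2.12 and 0.80, and DGAT2, which completes triglyceride synthesis, fell by 0.60 and 0.30.

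Of the genes of fatty acid synthesis and desaturation, the pathway opposite to oxidation, 11 of 14 tested were lower and 3 higher with the drug in each medium, where 39.2% of all genes were lower in RPMI and 33.7% in hBMSC-CM. Their summed level was 2003 to 2098 CPM with vehicle and 1144 to 1191 CPM with quizartinib in RPMI, and 2497 to 2747 CPM and 1883 to 1937 CPM in hBMSC-CM. FASN, the fatty acid synthase, fell from 434 ± 21.0 to 107 ± 11.02 CPM in RPMI (−2.02) and from 574 ± 41.7 to 329 ± 24.4 CPM in hBMSC-CM (−0.80, SD, n = 3). ELOVL6, an elongase, fell by 1.90 and 0.43 on the log2 scale. ACSS2, which makes acetyl-CoA from acetate, rose by 1.55 and 0.94, and ME1, the cytosolic malic enzyme, rose by 0.99 in RPMI, with 19.4 ± 1.31 and 22.4 ± 0.678 CPM in hBMSC-CM (SD, n = 3).

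CD36 is also known as a marker of monocytic cells, and the monocyte list is given beside it. Of its 8 genes, 4 were tested, and their calls with quizartinib were 2 higher (LYZ and ITGAX) and 2 lower (ITGAM and FCGR1A) in RPMI, and 2 higher and 0 lower in hBMSC-CM. Between media with quizartinib, these 4 were all higher in hBMSC-CM, against 35.5% of all genes, while CD36 was lower there. The list summed to 314 to 344 CPM with vehicle and 385 to 397 CPM with the drug in RPMI, and to 527 to 564 CPM and 1006 to 1127 CPM in hBMSC-CM. Most of this sum was LYZ, which had 275 ± 16.2 and 354 ± 6.04 CPM in RPMI and 503 ± 19.7 and 1010 ± 57.7 CPM in hBMSC-CM, without and with the drug (SD, n = 3). ITGAM had 22.6 ± 0.926 and 11.3 ± 0.646 CPM in RPMI and 21.5 ± 1.97 and 21.5 ± 2.53 CPM in hBMSC-CM, and FCGR1A had 13.9 ± 0.227 and 7.22 ± 0.344 CPM in RPMI and 11.1 ± 1.62 and 9.49 ± 1.52 CPM in hBMSC-CM, in the same order of groups (SD, n = 3). CSF1R, the receptor for the macrophage growth factor and a gene of the AML and myeloid list, is named after its values were seen. It rose with the drug in both media, from 24.5 ± 3.62 to 99.2 ± 3.44 CPM in RPMI (log2 change 2.02) and from 33.3 ± 3.51 to 95.1 ± 7.92 CPM in hBMSC-CM (1.51, SD, n = 3). CSF1R was among 5 of the 8 genes of that list called higher in RPMI and 4 in hBMSC-CM. Of all genes, 40.1% and 33.4% were higher. Some genes of the list did not rise. CD33 fell in RPMI (−0.28), and MPO, at a mean of 3.85 CPM, fell in both media (−0.41 and −0.45). HOXA9 was not called for the drug in either medium. The part of these cell markers in the CD36 values was not tested.

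Some counts could hold reads of other genes or lack reads that fall on shared bases. How such reads were counted, and use of strand in counting, are not given in the sources used here. ETFDH shares 1427 exon bases, 5.98% of its exons, with PPID on the opposite strand, and ACADM shares 157 bases (1.14%) with RABGGTB on its own strand and 1354 bases (9.83%) with the pseudogene DLSTP1 on the other. CPT2 shares 1151 bases (11.4%) with a long noncoding RNA and 99 with CZIB, ACADVL shares 49 bases with DLG4, all on the opposite strand, and ACAA2 shares 385 bases (7.83%) with another coding gene model on its own strand. These genes are therefore less certain than CD36, HADHA, HADHB, CPT1A and ECI1, whose exons shared no base with another annotated gene.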

How the data were processed

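RNA-seq counts of 12 MOLM-13 libraries were used. The authors deposited raw counts per gene, made from poly(A)-selected, paired-end reads by trimming with BBDuk and alignment to hg38 with STAR 2.6.0a, and summed gene IDs that shared a name. Use of strand is not given in the sources used here. Genes with a mean count and a mean CPM of at least 1 were kept, which left 12998 of 57353. Counts were fitted in edgeR 4.0.16 (R 4.3.3) with TMM factors and 4 group means, which left 8 residual degrees of freedom, and tested with its quasi-likelihood F-test. Every p was adjusted by Benjamini-Hochberg over all genes tested, and called means an adjusted p under 0.05. Intervals cover 95%. Within groups, pairs of libraries differed by more than counting noise (chi-square per gene 2.66 to 10.5), so none was treated as 1 library deposited 2 times, which does not tell whether cultures were separate.

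The members and lists were chosen with earlier results of these data known. From each list the text names up to 2 genes with the largest rise and 2 with the largest fall in RPMI among called genes that averaged 10 CPM or more, and, after their values were seen, ACACB and CPT1B. Gene positions and exon lengths came from GENCODE v44 on GRCh38, which need not be the annotation used for counting, and promoter windows from RefSeq. Alternatives were other scaling factors, filters and thresholds, DESeq2 1.42.0, limma 3.58.1 (voom), the compared groups alone, the replicate number as a block and each library left out. The code was tested on simulated data. The value of 1 listed marker gene is not reported here.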

Additional observations from a re-analysis of the deposited data

Results flagged for a closer look

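The drug effect differed between hBMSC-CM and RPMI for 4 of the 10 genes by the interaction test. On the log2 scale the effect in hBMSC-CM minus that in RPMI was −0.55 for CD36, 0.35 for ACADVL, −0.23 for HADHA and −0.15 for HADHB. Of all genes tested, 45.2% were called in this test. The groups had 3 libraries each, so no library was tested as an outlier within its group.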

How the results depend on the processing

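With no filter on low counts, log2 differences turned for genes that were not called, to −0.0089 (ACADM), −0.0447 (ACAA2) and −0.0734 (ETFDH) for the drug in RPMI and to −0.0131 (ACAA2) and −0.0056 (ETFDH) in hBMSC-CM. With filterByExpr, ETFDH in RPMI came to −0.0264 and ACAA2 in hBMSC-CM to −0.0053. Leaving out a library gave −0.0219 to 0.0441 for ACAA2 and −0.0124 to 0.0531 for ETFDH in hBMSC-CM. No called member changed direction under the alternatives run. The interaction was called for 2 members with no filter on low counts, against 4. The medium comparison with vehicle was called for 1 member at a threshold of 0.01, against 3, and for 1 to 3 when a library was left out, with 1 without vehicle replicate 3 in hBMSC-CM. At 0.01 that comparison called 2692 genes, against 4174. The cause of these changes was not tested, apart from the stricter threshold itself. CPT2 in treated cells in hBMSC-CM against vehicle in RPMI was also lost with DESeq2 size factors (0.10) and the DESeq2 Wald test (0.10), and CPT2 for the drug in hBMSC-CM with the latter (0.11). Over all settings, 781 member values stayed on their side of the threshold, 75 lost it, 10 gained it and 10 turned. These cover the called member values and the uncalled drug effects of ACADM in RPMI and of ACAA2 and ETFDH in both media. The remaining uncalled member values were not followed singly, so gains and turns among them are not in these counts.

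The replicate numbers did not pair the libraries, since deviations of same-numbered libraries had an r of −0.23 to 0.0979 over 18 pairs, and 0 of 12 libraries matched best with one of their own number. With the replicate block, members called in the 6 comparisons were 7, 8, 6, 3, 6 and 3, against 7, 8, 6, 3, 7 and 4. CPT2 in treated cells in hBMSC-CM against vehicle in RPMI (0.11) and the interaction of HADHB (−0.15) were lost. Counts of 91 to 164 limit the precision of CD36 in vehicle-treated cells.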
